A study of Mus musculus with 6 samples.

Results

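Amino acid breakdown and the urea cycle were followed in liver mRNA through 45 genes, which were defined by the known pathways of their products, out of 23284 genes counted. They make up 8 pathways: breakdown of phenylalanine and tyrosine, of tryptophan, of serine and histidine, transamination with glutamate release, the urea cycle, and breakdown of lysine and proline, of branched-chain amino acids, and of glycine, glyoxylate and cysteine. All 45 passed the filter on low counts, as 12453 genes did in all.

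The liver is the main site where most surplus amino acids are dismantled. Aminotransferases pass the amino group to glutamate, glutamate dehydrogenase and glutaminase release ammonia, and the urea cycle, split between mitochondrion and cytosol of the hepatocyte, turns ammonia and the nitrogen of aspartate into urea. The carbon skeletons go to glucose, ketone bodies or the citric acid cycle, so that many of these enzymes are known to be induced by fasting, glucagon and glucocorticoids. FXR, the bile acid receptor encoded by Nr1h4, is a nuclear receptor that represses bile acid synthesis in the liver.

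The livers came from male FXR-floxed mice injected when 8 weeks old with a pair of AAV8 vectors. Of these, one brought Cre, which deletes floxed FXR, and the other brought FXR-WT or Y67F-FXR, in which phenylalanine takes the place of a tyrosine and cannot be phosphorylated. Both were driven by the hepatocyte-specific TBG promoter, so hepatocytes of both groups lacked their own FXR and carried a vector copy, while other liver cells kept the floxed gene. After 4 weeks the mice ate chow containing 0.5% cholic acid, a bile acid that activates FXR, for 6 h before the livers were collected. Each group had 3 livers, each sequenced as its own library, and all 6 libraries were compared by edgeR's quasi-likelihood test, a gene being called where its p, adjusted after Benjamini and Hochberg, was under 0.05 and its fitted fold over 1.5.

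Libraries held from 19551113 to 22053320 reads on genes, and the 45 genes took from 2.06% to 2.66% of them. Levels are given in CPM, reads per gene scaled to a common library size with TMM factors. Hepatocyte markers were abundant, with Alb at 71311 CPM in FXR-WT and 71807 CPM in Y67F-FXR livers. Summed markers of Kupffer cells and leukocytes (10 genes) ranged from 127 to 179 CPM in FXR-WT and from 98.2 to 199 CPM in Y67F-FXR livers, those of stellate cells (8 genes) from 209 to 223 and from 149 to 210 CPM, those of cholangiocytes (5 genes) from 46.0 to 71.1 and from 54.1 to 60.6 CPM, and those of endothelial cells (5 genes) from 144 to 172 and from 146 to 157 CPM. None of these lists held a gene called by edgeR. DESeq2 called S100a8, S100a9 and Lrat lower, where it called 3.44% of all tested genes in either direction. At an unadjusted p under 0.05 in edgeR's test, 6 markers were lower in Y67F-FXR (S100a8, S100a9, Acta2, Lrat, Col1a1 and Lyve1). They made up 20% of the Kupffer cell and leukocyte markers, 37.5% of the stellate and 20% of the endothelial markers, beside 6.67% of all tested genes. The part of these 6 markers in the results was not tested. Of these, Acta2 overlapped between groups, at 9.88, 1.6 and 1.56 CPM in FXR-WT and 0.83, 1.58 and 0.95 CPM in Y67F-FXR livers, with FXR-WT 1 alone high. Of the erythrocyte list, 4 globin genes had no reads. Hba-a1 and Hba-a2 nearly coincide in position, as do Hbb-b1 and Hbb-b2, and reads on shared exons were not counted. Their lack of reads therefore does not show that blood RNA was absent. Alas2 was at 86.0 CPM in FXR-WT and at 96.2 CPM in Y67F-FXR livers. In these whole-liver samples fewer cells of a type and less RNA per cell cannot be told apart. Reads on Nr1h4 averaged 186 ± 30.2 CPM in FXR-WT and 175 ± 9.84 CPM in Y67F-FXR livers (SD, n = 3 each). Both groups carry the deletion. The counts do not separate mouse from vector FXR or the mutant from the wild type, so this gene does not check the labels. The paper describes its flag-tagged FXR as human, and how far reads of a human copy map to Nr1h4 was not tested. No label says which animals shared a cage or a day, and each p measures the spread between these livers alone.

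Of the 45 genes, 8 had an unadjusted p under 0.05 in edgeR's test: Slc25a15, Sds, Gpt2, Asl, Hgd, Aass, Tdo2 and Ivd. Sequences before the start site were listed by RefSeq (GRCm38.p6) for 35 of the 45 genes and for 6 of these 8. Nuclear receptors such as FXR bind repeats of AGGTCA, so this hexamer was searched on both strands in the 250 bases before and 50 bases after the start. It occurred in 12 of 35 genes, a share of 34.3%, beside 16.0% of 27025 promoters of the same length. The inverted repeat of the hexamer with 1 base between its copies, the classical FXR element, was in 0 of the 35 and in 0.0111% of all promoters. TGACG, the core of the cAMP response element, was in 4 (11.4%, against 21.0% of all), AGAACA, which glucocorticoid receptors bind as part of a longer element, in 5 (14.3%, against 19.0%), and TTGCNNAA, a C/EBP-type element, in 5 (14.3%, against 10.8%). A match is a description of letters and not a bound site. Of the 6 genes with a listed promoter, Hgd, Tdo2 and Aass held the hexamer and Gpt2, Slc25a15 and Ivd did not. The 3 that held it are given here with Gpt2 for contrast, 5′ to 3′ on the strand of the gene, with capitals marking the hexamer, which in each case reads as TGACCT and so lies on the opposite strand. Its first base was at -84 and at 35 from the start of Hgd, at -6 in Tdo2 and at -127 in Aass.
Hgd, chr16:37579903-37580202, plus strand: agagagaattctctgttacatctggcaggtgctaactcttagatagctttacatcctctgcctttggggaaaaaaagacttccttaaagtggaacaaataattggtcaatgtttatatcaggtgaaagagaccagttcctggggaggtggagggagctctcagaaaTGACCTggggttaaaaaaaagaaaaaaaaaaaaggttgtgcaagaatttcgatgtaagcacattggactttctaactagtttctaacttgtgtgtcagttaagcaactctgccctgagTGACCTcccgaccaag
Tdo2, chr3:81975679-81975978, minus strand: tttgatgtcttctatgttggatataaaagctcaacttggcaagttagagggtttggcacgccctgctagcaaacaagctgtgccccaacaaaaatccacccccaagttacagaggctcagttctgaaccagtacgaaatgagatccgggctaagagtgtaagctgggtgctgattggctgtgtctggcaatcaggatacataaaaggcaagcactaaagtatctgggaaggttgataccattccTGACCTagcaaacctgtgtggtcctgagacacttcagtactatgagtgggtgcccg
Aass, chr6:23132937-23133236, minus strand: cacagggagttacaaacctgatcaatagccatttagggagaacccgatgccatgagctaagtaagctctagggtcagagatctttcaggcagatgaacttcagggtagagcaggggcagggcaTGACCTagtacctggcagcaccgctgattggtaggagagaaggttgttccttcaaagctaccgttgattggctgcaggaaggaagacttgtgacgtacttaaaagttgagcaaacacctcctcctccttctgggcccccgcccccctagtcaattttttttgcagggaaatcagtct
Gpt2, chr8:85492326-85492625, plus strand: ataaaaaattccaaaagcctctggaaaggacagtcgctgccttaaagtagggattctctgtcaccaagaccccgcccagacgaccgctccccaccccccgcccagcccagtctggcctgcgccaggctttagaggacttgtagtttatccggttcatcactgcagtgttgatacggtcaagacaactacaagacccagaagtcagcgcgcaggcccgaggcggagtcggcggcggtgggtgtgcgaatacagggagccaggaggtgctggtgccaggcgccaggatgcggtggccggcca

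The central comparison asked whether mRNA of the amino acid pathways differed in livers whose hepatocyte FXR lacked that tyrosine. No gene of the 45 was called in either direction, where 0.972% of all tested genes were called (53 lower, 0.426%, and 68 higher, 0.546%). At an unadjusted p under 0.05 edgeR had 8 of the 45, all higher. DESeq2, run as an alternative, called Sds and Asl higher, where it called 3.44% of all genes. The levels leaned upward by small amounts: the fitted log2 fold change of Y67F-FXR against FXR-WT was above 0 for 36 and below 0 for 9 of the 45, with a median of 0.17, while 52% of all tested genes were above 0, with a median of 0.01. Scaled by library totals alone, 29 of the 45 were above 0. The fitted changes ran from -0.53 for Acmsd to 1.49 for Sds.

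All 8 genes with an unadjusted p under 0.05 were higher in Y67F-FXR, a share of 17.8%, beside 13.4% of all tested genes at that threshold, 6.75% higher and 6.67% lower. Sds, Gpt2, Asl and Slc25a15 were under it with any 1 liver left out, while Hgd, Tdo2, Aass and Ivd were each over it without at least 1 of the livers. Of the 45, 9 had groups that did not overlap, namely these 8 and Aldh4a1, again all higher. This is a share of 20%, beside 10.2% of tested genes that did not overlap and were higher, 10.5% that were lower and 20.6% in either direction. The genes without overlap were thus all on one side, while their share was near that of all tested genes. For 23 of the 45 the 95% interval of the fold lay within 1.5-fold either way, 51.1% beside 38.6% of all tested genes. The plot of fitted changes shows that wide intervals were mostly those of Sdsl, Sds, Tat, Hal, Cps1 and Acmsd.

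**Figure D1:**
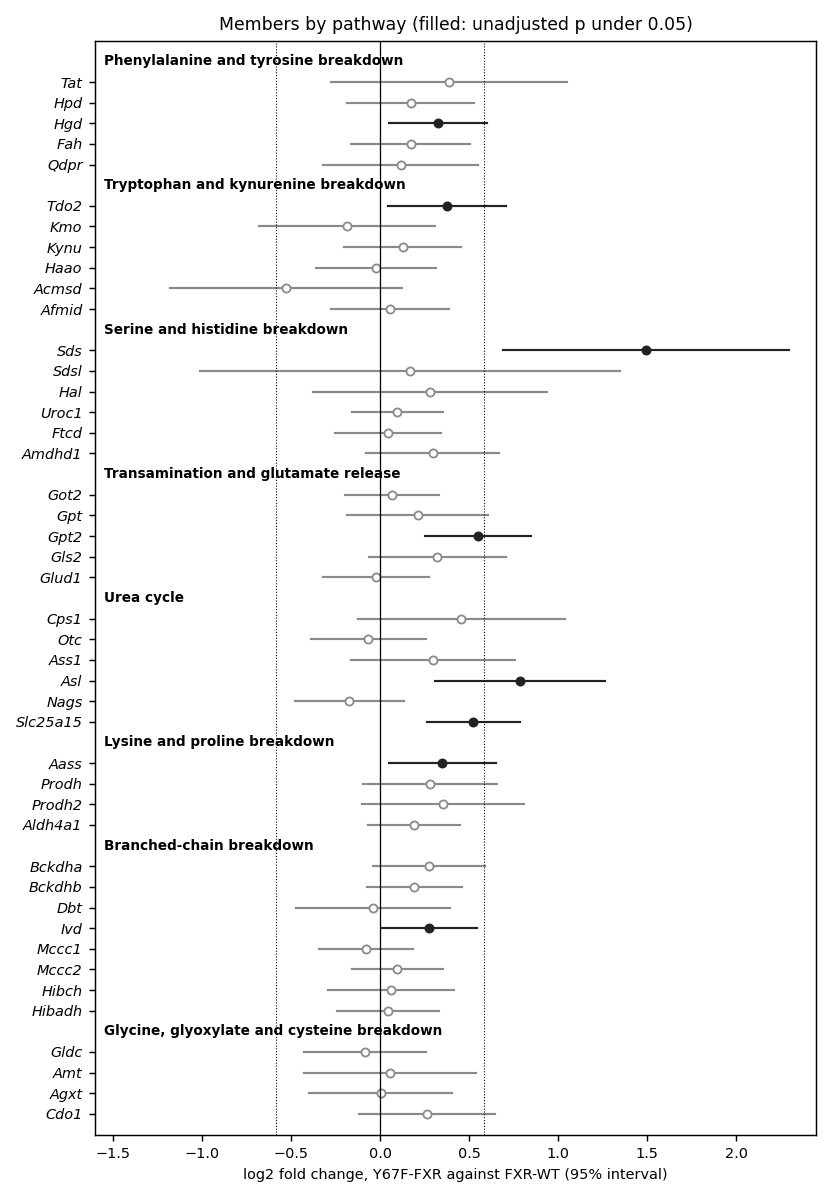
Fitted log2 fold change of Y67F-FXR against FXR-WT for the genes of the 8 pathways with its 95% interval, grouped by pathway, with dotted lines at a fold of 1.5 either way. Filled points mark the 8 genes with an unadjusted p under 0.05, all to the right of 0, and Sds stands farthest out at 1.49.

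The urea cycle had the largest ratio of summed levels. Its 7 genes together stood at 6368, 5455 and 4842 CPM in FXR-WT livers 1 to 3 and at 7457, 7364 and 7059 CPM in Y67F-FXR livers 1 to 3, a ratio of means of 1.31. Every Y67F-FXR sum was above every FXR-WT sum. The median fitted log2 fold change of the 7 was 0.30, with 5 above 0, and 2 had an unadjusted p under 0.05.

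Asl encodes argininosuccinate lyase, which splits argininosuccinate into arginine and fumarate (mm9 chr5:130487373-130500201). It stood at 1022, 864 and 651 CPM in FXR-WT livers 1 to 3 and at 1303, 1795 and 1275 CPM in Y67F-FXR livers 1 to 3. All 3 Y67F-FXR livers lay above all FXR-WT livers, FXR-WT 3 being the lowest and Y67F-FXR 2 the highest. The fitted fold was 1.72 (95% interval 1.24 to 2.4), a log2 fold change of 0.79 ± 0.207 (SE), with an unadjusted p of 0.00539 and an adjusted p of 0.145 in edgeR's test (Benjamini-Hochberg). DESeq2 gave Asl an adjusted p of 0.0186, and edgeR with offsets for gene length gave 0.0402, where 1.94% of all tested genes were called.

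Slc25a15 encodes the ornithine carrier that brings ornithine into the mitochondrion for the next turn of the cycle (mm9 chr8:23486022-23509093). It was at 229, 210.5 and 200.5 CPM in FXR-WT livers 1 to 3 and at 315, 310.3 and 294 CPM in Y67F-FXR livers 1 to 3. The livers of a group lay close together and the groups were well apart, and Slc25a15 had the smallest p of the 45 genes. Its fold was 1.44 (1.2 to 1.72), a log2 fold change of 0.52 ± 0.113. The unadjusted p was 0.00168 and the adjusted p 0.0930 in edgeR's test, and its fitted fold was below the 1.5 that a call requires. DESeq2 gave Slc25a15 an adjusted p of 9.1e-04, again with a fold below 1.5.

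Ass1, argininosuccinate synthase, was the most abundant of the cycle per length of transcript, at 1207 CPM per kb in FXR-WT and 1484 in Y67F-FXR livers. Its level was 2518, 1858 and 1530 CPM in FXR-WT and 2126, 2714 and 2420 CPM in Y67F-FXR livers, so the groups overlapped. Cps1, carbamoyl-phosphate synthetase, which commits ammonia to the cycle, was at 692, 795 and 840 CPM in FXR-WT and at 1503, 721 and 967 CPM in Y67F-FXR livers, where liver 1 alone was far above the rest. Without Y67F-FXR liver 1 the fitted log2 fold change of Cps1 was 0.12 in place of 0.46. Otc, ornithine transcarbamylase, and Nags, whose product N-acetylglutamate activates Cps1, had fitted log2 fold changes of -0.07 and -0.17, and both overlapped between groups.

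**Figure D2:**
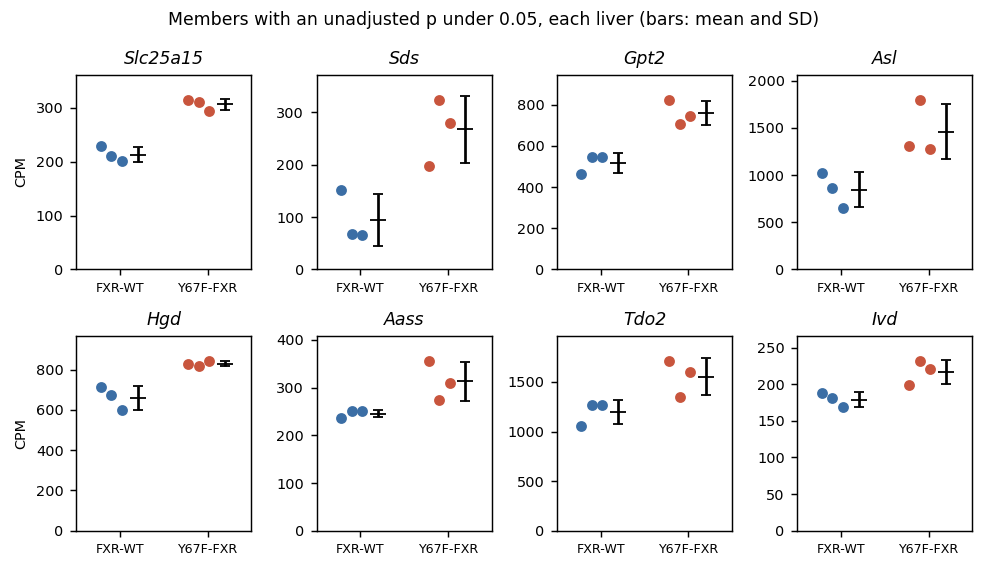
Level in CPM of the 8 genes with an unadjusted p under 0.05, with 1 point per liver and bars for mean and SD (n = 3). In each panel the 3 Y67F-FXR livers lie above the 3 FXR-WT livers, by the widest ratio for Sds.

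Among the enzymes that break down serine and histidine, the gene for serine dehydratase stood apart. Sds deaminates serine to pyruvate and ammonia and feeds gluconeogenesis (mm9 chr5:120926556-120933914). It was at 152, 67.9 and 65.1 CPM in FXR-WT livers 1 to 3 and at 198, 324 and 280.3 CPM in Y67F-FXR livers 1 to 3. The groups did not overlap, and FXR-WT 1 was above the other FXR-WT livers, which lay close together. The fold was 2.82 (1.61 to 4.91), a log2 fold change of 1.49 ± 0.348, the largest of the 45, with an unadjusted p of 0.00268 and an adjusted p of 0.106 in edgeR's test. Without FXR-WT liver 1 the log2 fold change was 2.01 and the adjusted p 0.02, a call, where 0.524% of all tested genes were called. DESeq2 gave Sds an adjusted p of 9.43e-04, and edgeR with offsets for gene length 0.0273. Sds shares 13 exon bases, 1.12% of its length, with Plbd2, and reads on them were not counted for either gene.

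Sdsl, the related serine dehydratase-like gene, lies 3784 bp from Sds on chromosome 5. Its levels were 46.9, 17.5 and 13.2 CPM in FXR-WT and 19.0, 46.5 and 21.6 CPM in Y67F-FXR livers, with 1 high liver in each group. On the log2 scale per length, Sds exceeded Sdsl by 2.04 ± 0.305 in FXR-WT and by 3.35 ± 0.456 in Y67F-FXR livers (SD, n = 3). The difference of 1.31 had an exact permutation p of 0.1, two-sided, the smallest that 3 livers against 3 can give.

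None of the 4 histidine genes had an unadjusted p under 0.05. Hal, which removes ammonia from histidine, had groups that overlapped and a fitted log2 fold change of 0.28. Its neighbour Amdhd1, which lies 6595 bp away on chromosome 10 and acts at the third step of the route, had 0.30. Uroc1, which acts between them, had 0.10. Ftcd, which hands the formimino group to tetrahydrofolate and was the most abundant of these genes per length, was at 551, 468 and 503 CPM in FXR-WT and at 472, 574 and 523 CPM in Y67F-FXR livers, with a fitted log2 fold change of 0.04. The 95% intervals of Uroc1 and Ftcd lay within 1.5-fold either way. Without FXR-WT 1 the fitted changes of Hal and Amdhd1 were 0.68 and 0.48, with unadjusted p of 0.00936 and 0.00544 in edgeR's test, and without FXR-WT 2 they were 0.065 and 0.19.

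Transamination and glutamate release held Gpt2, the mitochondrial alanine aminotransferase, which converts alanine and 2-oxoglutarate to pyruvate and glutamate (mm9 chr8:88016516-88051457). Gpt2 was at 462, 545 and 546 CPM in FXR-WT livers 1 to 3 and at 823, 706 and 746 CPM in Y67F-FXR livers 1 to 3. The groups were separated by a wide gap. Its fold was 1.46 (1.19 to 1.8), a log2 fold change of 0.55 ± 0.129, with an unadjusted p of 0.00270 and an adjusted p of 0.106 in edgeR's test. DESeq2 gave Gpt2 an adjusted p of 0.00309, with a fold below the 1.5 that a call requires. Gpt, the cytosolic enzyme and the most abundant of these genes per length, overlapped between groups at 458, 403 and 331 against 399, 545 and 435 CPM. The log2 ratio of Gpt2 to Gpt per length was higher by 0.34 in Y67F-FXR, within the spread of the livers (exact permutation p 0.4, two-sided).

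Gls2, the liver glutaminase, which releases ammonia from glutamine, was at 379.9, 269.8 and 258 CPM in FXR-WT and at 372, 368 and 394 CPM in Y67F-FXR livers, where FXR-WT 1 alone reached the Y67F-FXR level. Glud1, glutamate dehydrogenase, and Got2, the mitochondrial aspartate aminotransferase, had fitted log2 fold changes of -0.02 and 0.07, with 95% intervals within 1.5-fold either way.

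Breakdown of phenylalanine and tyrosine runs from Tat through Hpd, Hgd and Fah to fumarate and acetoacetate, and all 5 genes had fitted log2 fold changes above 0, with a median of 0.17. Hgd, homogentisate dioxygenase (mm9 chr16:37580239-37632112), was at 714, 672 and 597 CPM in FXR-WT and at 826, 818 and 841 CPM in Y67F-FXR livers. The Y67F-FXR livers lay close together, with an SD of 11.5 CPM, and above all FXR-WT livers. The log2 fold change was 0.33 ± 0.120, with an unadjusted p of 0.0259 and an adjusted p of 0.281 in edgeR's test. Tat, tyrosine aminotransferase, a classical glucocorticoid-responsive gene, had the largest fitted change of the pathway at 0.39 and a wide spread, with 1516, 945 and 678 CPM in FXR-WT and 1681, 1236 and 1184 CPM in Y67F-FXR livers. Its fitted change was 0.75 without FXR-WT 1, 0.15 without FXR-WT 3 and 0.21 without Y67F-FXR 1, which was below that of Hgd in the last 2 cases. Hpd, which forms homogentisate, was the most abundant gene per length of all 45, at 2153 CPM per kb in FXR-WT and 2426 in Y67F-FXR livers, with 3183, 3199 and 2424 against 2985, 3573 and 3362 CPM. Fah, fumarylacetoacetase, and Qdpr, which regenerates the tetrahydrobiopterin that phenylalanine hydroxylase uses, had 0.17 and 0.11, and both overlapped.

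Of the 6 genes of tryptophan breakdown, 1 had an unadjusted p under 0.05. Tdo2, the dioxygenase that opens the tryptophan ring and sets the pace of the route in liver (mm9 chr3:81762336-81779650), was at 1057, 1269 and 1265 CPM in FXR-WT and at 1709, 1346 and 1602 CPM in Y67F-FXR livers. The lowest Y67F-FXR liver was just above the highest FXR-WT liver. The log2 fold change was 0.37 ± 0.144, with an unadjusted p of 0.0316 and an adjusted p of 0.309 in edgeR's test. The later enzymes Afmid, Kynu, Kmo and Haao had fitted log2 fold changes of 0.05, 0.13, -0.19 and -0.02, with overlapping groups. Acmsd, which diverts the route from NAD synthesis to full oxidation, was the least abundant of the 45, at 10.3, 7.13 and 4.75 CPM in FXR-WT and at 5.88, 4.47 and 4.96 CPM in Y67F-FXR livers. The fitted log2 change of -0.53 ± 0.282 had an unadjusted p of 0.0985 in edgeR's test. FXR-WT 1 was the high liver, and the fitted change was -0.22 without it. Without FXR-WT 3 the fitted change was -0.77, with an unadjusted p of 0.0125 in edgeR's test.

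Lysine and proline breakdown had the largest median of the pathways, 0.31 on the log2 scale over 4 genes. Aass, the bifunctional enzyme that starts lysine breakdown in mitochondria (mm9 chr6:23022173-23082986), was at 236, 249.9 and 250.5 CPM in FXR-WT and at 355, 273 and 310 CPM in Y67F-FXR livers. The groups did not overlap, and the FXR-WT livers were nearly alike. The log2 fold change was 0.35 ± 0.131, with an unadjusted p of 0.0284 and an adjusted p of 0.294 in edgeR's test. Prodh2, which oxidises hydroxyproline, overlapped at 257, 208 and 188 against 211, 337 and 287 CPM. It had the highest mean level per length over the 6 livers (below Aldh4a1 in FXR-WT alone). Its fitted change was the largest here by a small margin, 0.353 against 0.350 for Aass. With 1 liver left out, Prodh2 ran from 0.18 to 0.52 and Aass from 0.25 to 0.43. Prodh, proline dehydrogenase, had 0.28, and the ratio of Prodh2 to Prodh differed by 0.04 on the log2 scale (exact permutation p 1, two-sided). Aldh4a1, the dehydrogenase that acts after both, did not overlap at 426, 424 and 398 against 471, 454 and 500.5 CPM, and its unadjusted p was 0.124 in edgeR's test.

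Branched-chain breakdown had the largest share of narrow intervals. Its 8 genes had a median fitted log2 fold change of 0.08, and for 7 of them the 95% interval lay within 1.5-fold either way. Ivd, isovaleryl-CoA dehydrogenase of the leucine route (mm9 chr2:118687736-118707093), was at 188, 181 and 168 CPM in FXR-WT and at 199, 231 and 221 CPM in Y67F-FXR livers, without overlap. The log2 fold change was 0.28 ± 0.117, with an unadjusted p of 0.0455 and an adjusted p of 0.358 in edgeR's test. Bckdha, a subunit of the branched-chain ketoacid dehydrogenase and the most abundant of the 8 per length over the 6 livers (below Hibadh in FXR-WT alone), was at 327, 341 and 291 CPM in FXR-WT and at 337, 431 and 393 CPM in Y67F-FXR livers, which overlapped. The other subunits Bckdhb and Dbt had 0.19 and -0.04, the methylcrotonyl-CoA carboxylase subunits Mccc1 and Mccc2 had -0.08 and 0.10, and Hibch and Hibadh of the valine route had 0.06 and 0.05.

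Glycine, glyoxylate and cysteine breakdown had no gene with an unadjusted p under 0.05. Cdo1, cysteine dioxygenase, which makes the precursor of taurine for bile acid conjugation, was the most abundant of the 4 per length, at 1496, 2201 and 1629 CPM in FXR-WT and at 2030, 2155 and 2203 CPM in Y67F-FXR livers. FXR-WT 2 reached the Y67F-FXR level, and the log2 fold change of 0.26 ± 0.166 had an unadjusted p of 0.152 in edgeR's test. With 1 liver left out the fitted change of Cdo1 ran from 0.15 to 0.45. Without FXR-WT 2 the unadjusted p was 0.0183 in edgeR's test. Gldc and Amt of the glycine cleavage system had -0.08 and 0.06, and Agxt, which removes glyoxylate, had 0.00, all 3 with 95% intervals within 1.5-fold either way.

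The heat map of deviations shows where single livers set these values. FXR-WT 3 was the lowest of the 6 livers for 20 of the 45 genes and Y67F-FXR 3 was the lowest for 0, while the highest liver was Y67F-FXR 1 for 11, Y67F-FXR 2 for 13 and Y67F-FXR 3 for 10. Summed over all 45 genes the livers stood at 23411, 22341 and 19601 CPM in FXR-WT and at 26067, 26526 and 26201 CPM in Y67F-FXR, a ratio of means of 1.21. The 3 Y67F-FXR sums were nearly equal and above every FXR-WT sum. Short transcripts also varied between libraries. Over the shortest 20% of tested genes, the median log2 deviation was 0.20 in FXR-WT 1 and 0.22 in Y67F-FXR 2. It was -0.18 in FXR-WT 3 and -0.20 in Y67F-FXR 1. Among the 45, Sdsl was high in those same livers, FXR-WT 1 and Y67F-FXR 2; the part of transcript length in these values was not tested gene by gene. The genes of the 45 had a median exon length of 2124 bp against 2818 bp over all tested genes. With offsets for length, 10 of the 45 had an unadjusted p under 0.05, beside 16.9% of all tested genes, and the median fitted log2 fold change was 0.19.

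**Figure D3:**
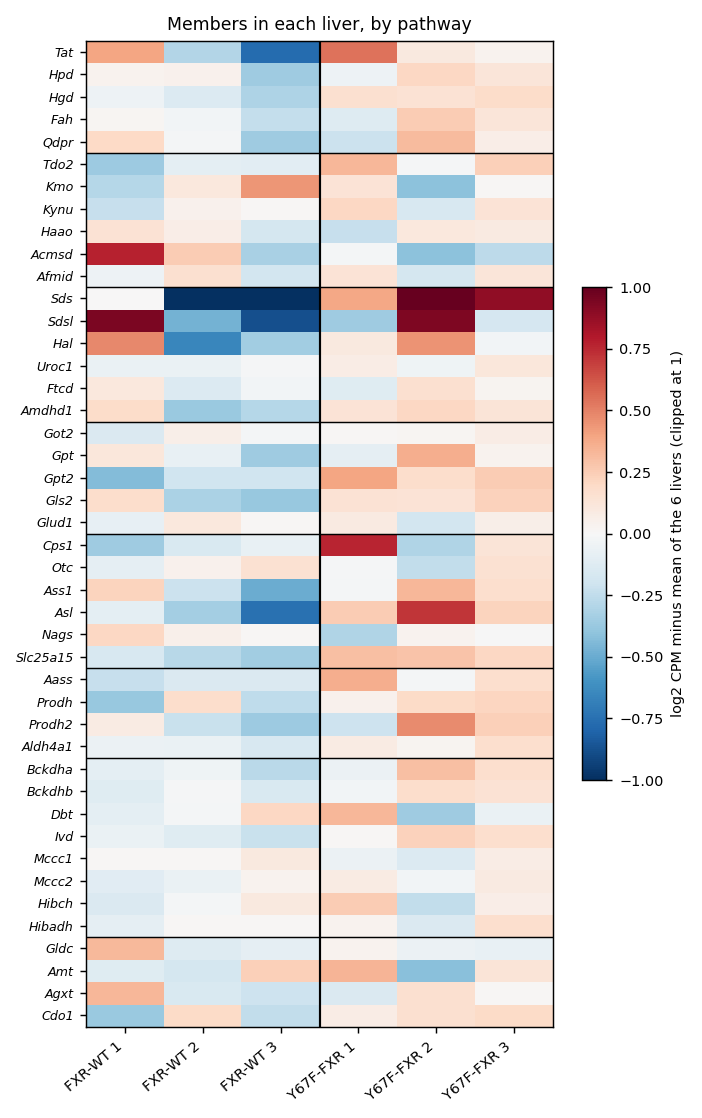
Heat map of log2 CPM minus the mean of the 6 livers for the genes of the 8 pathways (rows) in each liver (columns), with colours clipped at 1 either way. FXR-WT 3 is mostly blue (lowest liver for 20 genes) and Y67F-FXR 3 is mostly pale red (lowest liver for 0 genes).

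**Figure D4:**
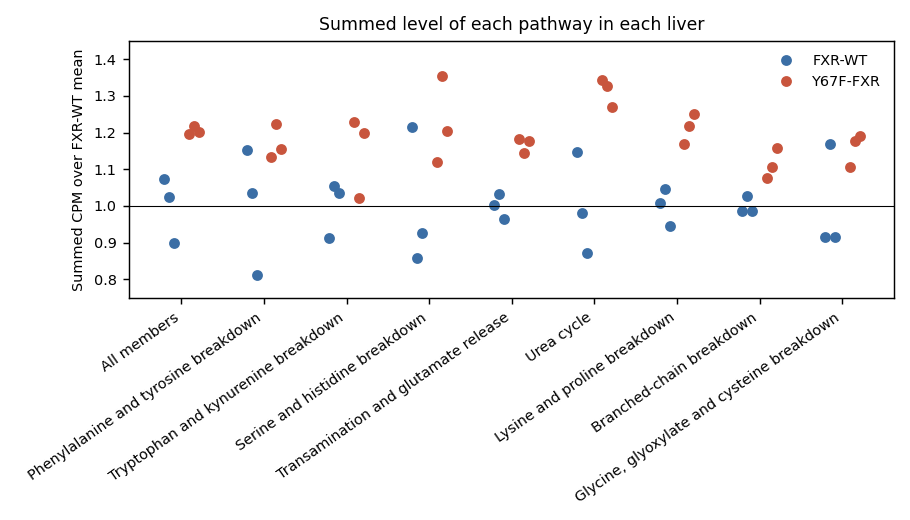
Summed CPM of all 45 genes and of each pathway in each liver, divided by the FXR-WT mean of that sum, with 1 point per liver. The Y67F-FXR points lie above all FXR-WT points for all 45 genes together, where the ratio of means is 1.21, for the urea cycle, where it is 1.31, and for transamination, lysine and proline, and branched-chain breakdown. They overlap with FXR-WT for the tyrosine, tryptophan, serine and histidine, and glycine pathways.

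Genes that work beside the 45 were examined in lists of other enzymes, transporters, regulators and genes of liver zones, drawn up with earlier results of these data known, the change of Got1 among them. Of 42 other enzymes of these pathways, 38 were tested and 2 were called higher, Got1 and Ppm1k, and 0 lower, beside 0.546% and 0.426% of all tested genes. At an unadjusted p under 0.05, 6 were higher and 2 were lower, beside 6.75% and 6.67% of all, and the median fitted log2 fold change was 0.06. Of 12 amino acid transporters, 2 were called higher, Slc25a22 and Slc7a2, and 0 lower, and the median was 0.11. At an unadjusted p under 0.05, 3 transporters were higher, these and Slc38a4, and 1 was lower, Slc3a1.

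Got1, the cytosolic aspartate aminotransferase (mm9 chr19:43574243-43599095), rose from 89.3, 105 and 78.5 CPM in FXR-WT to 463, 485 and 436 CPM in Y67F-FXR livers, a fold of 5.07 (95% interval 4.02 to 6.4). The log2 fold change was 2.34 ± 0.145, with an adjusted p of 0.00141 in edgeR's test, and it stayed called with each liver left out (adjusted p from 0.00265 to 0.0124). Its mitochondrial counterpart Got2, which catalyses the same reaction, stood at 412, 476 and 449 against 459, 462 and 481 CPM. Per length, the log2 ratio of Got1 to Got2 was -2.11 ± 0.187 in FXR-WT and 0.17 ± 0.109 in Y67F-FXR livers (SD, n = 3). Got1 thus passed from well below Got2 to about its level, with a difference of 2.28 and an exact permutation p of 0.1, two-sided, the smallest that this design allows.

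Slc25a22, a mitochondrial glutamate carrier (mm9 chr7:148615648-148623773), rose from 176, 140.2 and 143 CPM in FXR-WT to 407, 456 and 362 CPM in Y67F-FXR livers, with a fold of 2.67 (2.11 to 3.38) and an adjusted p of 0.0139 in edgeR's test. The adjusted p was 0.0614 without FXR-WT liver 3. Slc7a2, a plasma membrane carrier of arginine, lysine and ornithine (mm9 chr8:41947721-42007424), rose from 303, 262 and 256 to 883, 629 and 641 CPM, with a fold of 2.62 (2 to 3.43) and an adjusted p of 0.0175. Its adjusted p was 0.0688 without FXR-WT liver 2, 0.0884 without FXR-WT liver 3 and 0.0531 without Y67F-FXR liver 3. Ppm1k, the phosphatase that activates the branched-chain ketoacid dehydrogenase (mm9 chr6:57456496-57485420), rose from 46.5, 44.0 and 51.2 to 101, 79.4 and 74.0 CPM, with a fold of 1.79 (1.41 to 2.27) and an adjusted p of 0.0494. That call was lost with any 1 of the 6 livers left out, with adjusted p from 0.0902 to 0.201.

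**Figure D5:**
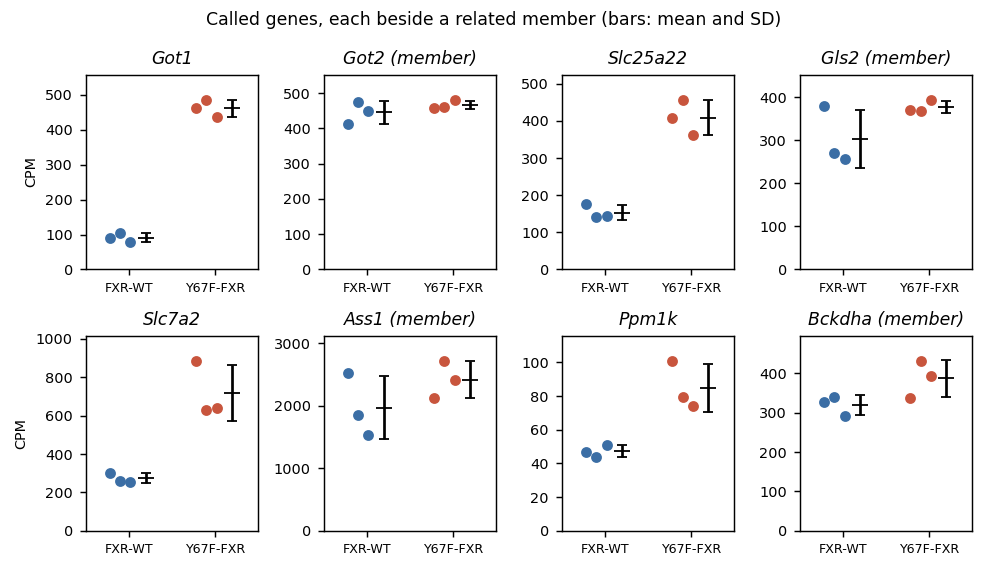
Level in CPM of the 4 called genes Got1, Slc25a22, Slc7a2 and Ppm1k, each beside one of the 45 genes that acts on a related substrate or complex (Got2, Gls2, Ass1 and Bckdha), with 1 point per liver and bars for mean and SD (n = 3). The called genes separate widely between groups, Got1 from at most 105 to at least 436 CPM, while Got2, Gls2, Ass1 and Bckdha overlap.

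Lower at an unadjusted p under 0.05 among the other enzymes were Hao1, the peroxisomal glycolate oxidase, with a log2 fold change of -0.64 ± 0.165 and an adjusted p of 0.137, and Ccbl1, a kynurenine aminotransferase, with -0.90 ± 0.280 and an adjusted p of 0.208 in edgeR's test. Ccbl1 was at 293, 137 and 148 CPM in FXR-WT and at 96.0, 110 and 105 CPM in Y67F-FXR livers, with FXR-WT 1 far above the rest. Slc3a1, part of a cystine and dibasic amino acid carrier, was likewise lower, at -0.74 ± 0.253 with an adjusted p of 0.248. Oat, ornithine aminotransferase, which joins ornithine to proline metabolism and marks pericentral hepatocytes, had 0.72 ± 0.202 and an adjusted p of 0.162. None of these passed the adjusted threshold in edgeR's test, while DESeq2 called Hao1 lower and Oat higher.

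Of 11 regulators of these pathways, 0 were called by edgeR and 1, Klf15, by DESeq2, beside 3.44% of all tested genes. At an unadjusted p under 0.05 edgeR had 2, both higher, beside 13.4% of all in either direction. Klf15, a fasting-responsive factor known to act on amino acid catabolism, was at 92.3, 104 and 85.2 CPM in FXR-WT and at 164, 139 and 143 CPM in Y67F-FXR livers. The groups were far apart, with a log2 fold change of 0.67 ± 0.130 and an adjusted p of 0.0704. Ppara, a nuclear receptor of the fasting response, had 0.58 ± 0.202 and an adjusted p of 0.255, and its coactivator Ppargc1a 0.72 ± 0.327 and an adjusted p of 0.397 in edgeR's test.

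Many enzymes of serine, histidine and urea metabolism are known to lie in hepatocytes near the portal vein. Of 8 periportal and 10 pericentral markers, 0 were called by edgeR, and 2 and 1 had an unadjusted p under 0.05, beside 13.4% of all tested genes. DESeq2 called those 3, Pck1 and Oat higher and Cdh1 lower, beside 3.44% of all. Pck1, the periportal gluconeogenic enzyme, was at 1518, 2639 and 1637 CPM in FXR-WT and at 4798, 3756 and 3807 CPM in Y67F-FXR livers, a log2 fold change of 1.09 ± 0.231 with an adjusted p of 0.0872. Cdh1, E-cadherin, another periportal marker, went the other way, at -1.07 ± 0.280 with an adjusted p of 0.143. Aldh1b1, also periportal, had -0.71 with an adjusted p of 0.629 in edgeR's test, and overlapped between groups at 162, 45 and 48.1 against 35.8, 68.8 and 52.0 CPM, where FXR-WT 1 alone was high. Tbx3 and Slc1a2, both pericentral, had 0.47 and 0.27, with adjusted p of 0.376 and 0.523 in edgeR's test. The medians of the lists were -0.03 for periportal and 0.19 for pericentral markers.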

How the data were processed

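Libraries of 3 Y67F-FXR and 3 FXR-WT livers were sequenced. Per the submitters' processing notes, reads were trimmed with Trimmomatic 0.36, aligned to mm9 with STAR 2.5.3a and counted with featureCounts 1.4.6-p4. The deposited values are counts per gene that the authors did not normalize, taken without regard to strand and with the reads of a pair counted singly. The deposited table of the authors' own comparison (fold changes and p-values) was not used. Low genes were removed by filterByExpr, library sizes were adjusted by TMM, and the groups were compared by the quasi-likelihood test (glmQLFit, glmQLFTest) of edgeR 4.0.16 in R 4.3.3, and DESeq2 1.42.0 was an alternative. A call needed a Benjamini-Hochberg adjusted p under 0.05 over 12453 genes and a fold over 1.5. Standard errors come from the F statistic, log2 CPM used a prior count of 2, and figures were drawn with matplotlib 3.10.9 in Python 3.11.15. The fit was tested on simulated counts. Genes and lists were chosen with earlier results of these data known. Values per liver are given for genes with an unadjusted p under 0.05 and for the largest change and the highest level per length of each pathway, and for the other lists the called genes and the 3 smallest p are named. Replicates of a group differed by more than counting noise, so each was kept as its own sample. Alternatives were other scaling factors, DESeq2, other filters, no fold minimum, a replicate block, offsets for gene length (loess, span 0.3) and each liver left out. Positions of genes come from the count files (mm9), and promoters are RefSeq sequences of GRCm38.p6. Of the 45 genes, 5 share a few exon bases with another gene, and such reads were not counted. Values of single genes that are left out are not reported here, and sums and counts are over all 45.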

Additional observations from a re-analysis of the deposited data

How the results depend on the processing

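No gene of the 45 was called under the other scaling factors, filters, the replicate block or without the fold minimum. DESeq2 and the offsets for gene length each called 2, Sds and Asl, and with 1 liver left out the count ran from 0 to 1, the 1 being Sds without FXR-WT liver 1. The count at an unadjusted p under 0.05, 8 in the main test, was 4 with library totals (13.8% of all tested genes), 4 with the replicate block (8.81% of all) and from 4 to 12 with 1 liver left out, the 4 being without Y67F-FXR liver 3 (9.3% of all) and the 12 without FXR-WT liver 1 (12.3% of all). Sds, Gpt2, Asl and Slc25a15 were under 0.05 in all 15 settings, with adjusted p of up to 0.336, 0.388, 0.351 and 0.335 in edgeR's test. The median log2 fold change, 0.17, was 0.10 with library totals, where the median of all genes moved from 0.01 to -0.06, and from 0.14 to 0.22 with 1 liver left out.

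Library totals turned the log2 fold changes of Afmid (-0.011), Ftcd (-0.030), Got2 (-0.0023), Hibch (-0.0057), Hibadh (-0.023), Amt (-0.0078) and Agxt (-0.067) below 0, and upper quartile factors that of Agxt (-0.0048). With 1 liver left out, the sign also turned at least once for 14 genes, whose values ran from -0.11 to 0.078 for Haao, -0.060 to 0.17 for Hibch, -0.17 to 0.071 for Gldc, -0.11 to 0.23 for Amt, -0.36 to 0.92 for Sdsl, -0.040 to 0.11 for Ftcd, -0.075 to 0.046 for Glud1, -0.096 to 0.19 for Agxt, -0.033 to 0.25 for Qdpr, -0.36 to 0.0095 for Kmo, -0.022 to 0.15 for Afmid, -0.24 to 0.10 for Dbt, -0.16 to 0.020 for Otc and -0.024 to 0.11 for Hibadh. The cause was not tested.

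Got1 was called in every setting. Under the replicate block the adjusted p was 0.0809 for Slc7a2, 0.0867 for Slc25a22 and 0.201 for Ppm1k, and that of Ppm1k was 0.0935 with library totals and 0.0510 with upper quartile factors. The block called 8 genes in all against 121 without it. Same-numbered livers had correlations of -0.52, -0.08 and 0.12 in their deviations from the group means, so the numbers were not taken as pairs. With 3 livers a group, a change of over 1.5-fold lay outside the 95% interval for 23 of the 45 genes and not for the others.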
